A study of Ovis aries with 16 samples.

Results

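PTCH1, SMO, SLIT2, NTN4 and FGF10 are 5 genes of Hedgehog, axon guidance and fibroblast growth factor signalling that were measured in the hypothalamus of 16 late-gestation fetal sheep. They were followed through every probe that carried their name on a single-colour ovine array, 12 of 15008 probes, and through 5 of 963 named genes. PTCH1, SMO, SLIT2 and NTN4 had 2 probes each and FGF10 had 4. Estradiol+BCO fetuses received estradiol at 250 ug per day for 5 days and then a 10 min occlusion of the brachiocephalic artery (BCO), the vessel that carries blood towards the head. Estradiol fetuses received the same estradiol and a sham occlusion, BCO fetuses had the occlusion with no other treatment, and control fetuses had the sham occlusion alone. All 16 fetuses carried chronic catheters, were sampled for blood, and were 124 to 128 days into a gestation of 147 days. Tissue was collected 1 h after the occlusion or its sham began, following 50 min of recovery, and each group had 4 fetuses with 1 array each. The 5 genes were singled out with results of these same arrays known: PTCH1 for its lower level in estradiol+BCO than in estradiol fetuses, and SLIT2 for its lower level in BCO than in control fetuses. How SMO, NTN4 and FGF10 were picked is not recorded. Differences between groups for all 5 genes are therefore given as a description, without p-values.

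Hedgehog ligands such as SHH bind the membrane protein PTCH1, which in their absence holds SMO silent. Once released, SMO passes the signal to the GLI transcription factors, and PTCH1 is itself a target gene of the pathway. In vertebrate embryos SHH patterns the ventral forebrain, from which the hypothalamus forms. SLIT2 is a secreted ligand that repels growing axons through ROBO receptors. NTN4 is a secreted, laminin-related netrin found in basement membranes. FGF10 is a secreted growth factor that acts mainly through FGFR2 and that marks tanycytes, the glia-like cells lining the ventricle, in the mouse hypothalamus.

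The probes were 60-base oligonucleotides, and both probes of a gene often covered nearly the same stretch. The sequences below, taken from the scanner files, show how far pairs of probes repeated each other, because this bears on how much weight a second probe adds. Capitals mark the bases that both probes of a pair share.
PTCH1 A_70_P068161: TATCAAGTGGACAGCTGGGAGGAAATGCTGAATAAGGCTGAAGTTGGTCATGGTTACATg
PTCH1 A_70_P068162: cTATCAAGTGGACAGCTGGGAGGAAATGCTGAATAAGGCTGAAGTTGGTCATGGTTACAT
SMO A_70_P068171: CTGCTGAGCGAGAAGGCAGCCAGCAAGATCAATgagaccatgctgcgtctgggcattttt
SMO A_70_P068172: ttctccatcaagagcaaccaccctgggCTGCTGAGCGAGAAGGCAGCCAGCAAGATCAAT
SLIT2 A_70_P024356: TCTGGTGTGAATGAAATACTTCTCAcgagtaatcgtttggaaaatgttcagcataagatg
SLIT2 A_70_P024357: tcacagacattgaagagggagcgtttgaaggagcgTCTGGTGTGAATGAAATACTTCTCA
FGF10 A_70_P068086: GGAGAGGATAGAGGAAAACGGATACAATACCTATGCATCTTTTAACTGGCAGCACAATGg
FGF10 A_70_P068087: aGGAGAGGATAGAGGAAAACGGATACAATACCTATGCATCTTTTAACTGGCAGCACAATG

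The PTCH1 pair shared 59 of 60 bases, the FGF10 pair shown 59, the SMO pair 33 and the SLIT2 pair 25. The NTN4 probes overlapped by 12 bases, and the other FGF10 probes, A_70_P012571 and A_70_P012572, overlapped neither each other nor the pair shown. Over the 16 arrays the paired levels correlated with Pearson's r = 0.94 for NTN4, 0.88 for PTCH1, 0.73 for SLIT2 and 0.64 for the overlapping FGF10 pair. The SMO probes, although they share 33 bases, gave r = 0.15. Each point of such a correlation is 1 array, so both probes share its RNA, labelling and scan. The 12 probes are therefore not 12 independent measurements, and the SMO probes did not track each other.

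**Figure D1:**
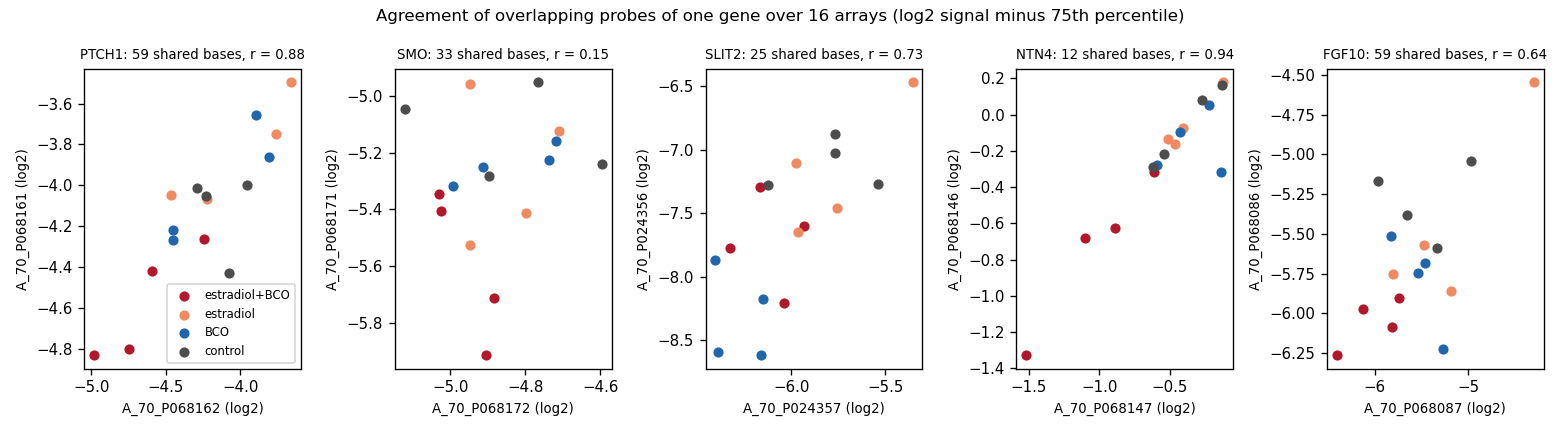
Each panel plots 1 pair of overlapping probes of a gene, with the log2 signal minus the array's 75th percentile on both axes and 1 point per array (16 arrays, coloured by group). The NTN4 and PTCH1 points lie near a line (r = 0.94 and 0.88), whereas the SMO points do not (r = 0.15).

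Levels are given on the log2 scale as the background-subtracted signal of a probe minus the 75th percentile of all probes on its array, which lay between 2020.5 and 2904.0 signal units. A level of 0 is therefore a bright probe, and a difference of -1 between groups is a halving of the signal. Levels of different probes are not comparable. NTN4 was bright, with a median of 2072 and 1673 units for its probes. PTCH1 had medians of 133 and 122 units, SMO of 61.5 and 77.2, and FGF10 of 43.0, 115, 44.1 and 48.2. The SLIT2 probes were the dimmest, with medians of 12.7 and 35.5 units above a local background of 56.5 to 65.0 units. The dimmer SLIT2 probe was called well above background on 7 arrays, and the other 11 probes on all 16. As a check of the labelled tissue, 13 of 14 listed hypothalamic neuron genes were measured, AGRP, GHRH and POMC among them, whereas none of the listed pan-neuronal or oligodendrocyte markers had a named probe.

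All 5 genes stood lower in estradiol+BCO fetuses than in estradiol and in control fetuses, by every probe. For SMO A_70_P068172 these differences were only about the size of their error, at -0.11 ± 0.11 (SE) and -0.12 ± 0.11. In estradiol+BCO against estradiol fetuses all 12 probes were lower, with a median log2 difference of -0.58 and a range from -0.83 to -0.11, while the median over all 12937 probes tested was -0.01. Against control fetuses all 12 were again lower, with a median of -0.48, and against BCO fetuses 9 were lower and 3 higher, with a median of -0.31. BCO without estradiol gave 9 lower and 3 higher probes against control, with a median of -0.10, and estradiol without BCO gave 5 lower and 7 higher, with a median of 0.01. These comparisons share groups, since the same 4 estradiol+BCO arrays enter the first 3 of them, and control arrays enter 3. The estradiol+BCO group had the lowest mean of the 4 groups for 9 probes and the BCO group for 3, both SLIT2 probes and FGF10 A_70_P012572.

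No probe of the 5 genes passed limma's test with Benjamini-Hochberg adjustment over all probes in any of the 8 comparisons, where 0.00773% of all probes were called in estradiol+BCO against estradiol and in the interaction, and 0% in the other 6. At an unadjusted p under 0.05, 9 of the 12 probes were called in estradiol+BCO against estradiol, beside 7.73% of all probes. In estradiol+BCO against control the count was 7, beside 5.81% of all probes. In estradiol+BCO against BCO it was 6, of which 5 were lower and 1, the dimmer SLIT2 probe, higher, beside 9.45%. It was 2 in BCO against control, beside 7.17%, and 0 in estradiol against control, beside 3.28%. Averaged over the other treatment it was 9 for BCO, beside 7.6%, and 3 for estradiol, beside 5.58%, and in the interaction it was 3, beside 7.21%. The 4 estradiol+BCO arrays all lay below the 4 estradiol arrays for 4 probes, beside 2.88% of all probes, and below the 4 control arrays also for 4, beside 2.06%. They lay below the 4 BCO arrays for 2 probes, beside 2.57%, and the BCO arrays lay below the control arrays for 3, beside 1.79%. The dimmer SLIT2 probe was well above background on 4 estradiol, 2 control and 1 estradiol+BCO array. It was therefore among the probes tested, which needed 4 such arrays, only through the estradiol group. With probes well above background on all 16 arrays alone, 11 of the 12 were left. In estradiol+BCO the unadjusted count was then 8 against estradiol, beside 986 of 11278 probes, and 6 against control, beside 716. Against BCO it was 5, beside 1140, and in BCO against control 1, beside 820. PTCH1 and SLIT2 were chosen from these contrasts, and how the others were chosen is not recorded, so nothing is read from the counts.

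**Figure D2:**
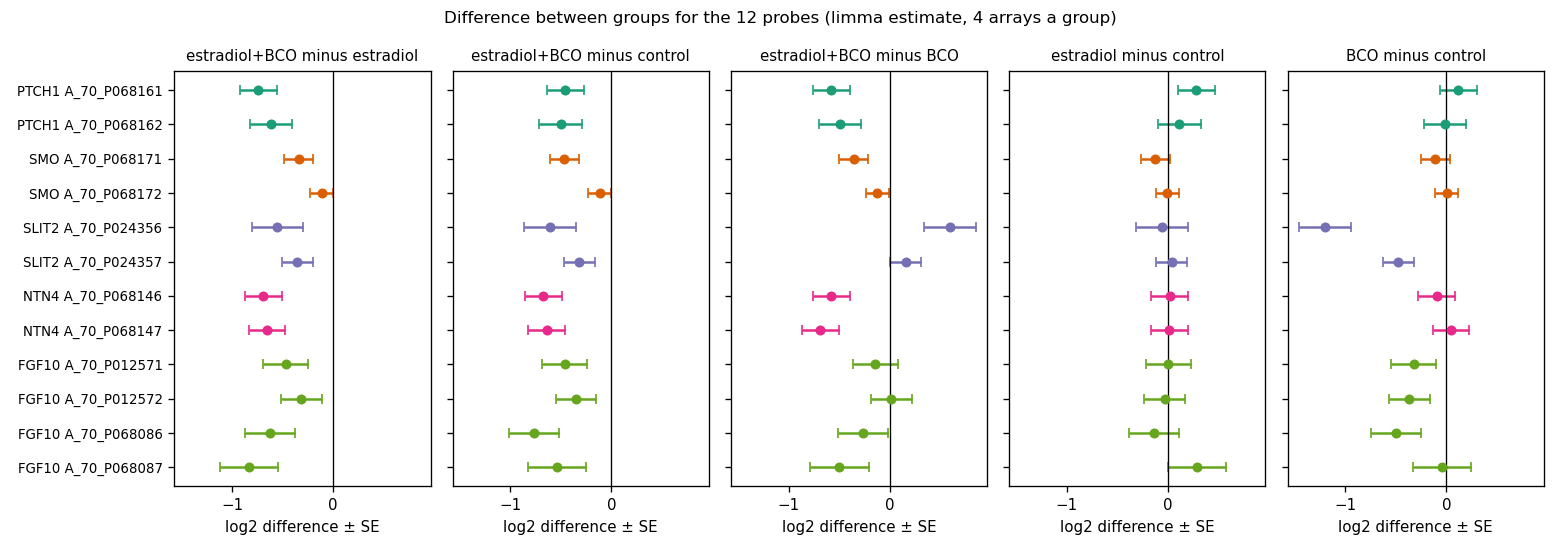
Each row is 1 probe and each panel 1 comparison, with the log2 difference between group means on the x axis (point, limma estimate; bar, 1 standard error; 4 arrays a group). All 12 points lie left of 0 in estradiol+BCO minus estradiol and in estradiol+BCO minus control, and 9 of 12 do in BCO minus control. SLIT2 A_70_P024356, drawn there at -1.20, was not well above background on any of the 4 BCO arrays, so its point is not an exact value.

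Markers of cell types that a hypothalamic dissection can hold were followed in the same contrast. Beside the lower levels in estradiol+BCO than in estradiol fetuses, the mean level of 4 measured meningeal and fibroblast genes (of 6 listed) was -2.85 to -1.89 over the estradiol+BCO arrays and -2.26 to -1.48 over the estradiol arrays. All 4 were lower (COL1A2 by a log2 difference of -0.86 ± 0.26, COL3A1, DCN and FBLN1), and none passed the adjusted test. The mean level of 4 measured pituitary hormone genes (of 7 listed; the POU1F1 probe stayed near background throughout) was -4.80 to -3.57 over the estradiol+BCO arrays and -3.56 to -1.01 over the estradiol arrays, with 2 of the 4 genes lower and 2 higher. VIM, the measured gene of 8 listed for tanycytes and ependyma, was at 5.63 to 6.35 in estradiol+BCO and 5.61 to 6.45 in estradiol fetuses, and the mean of 4 astrocyte genes (of 8 listed) was -0.11 to 0.11 and 0.03 to 0.30. The mean level of 13 measured hypothalamic neuron genes was -3.11 to -1.09 over the estradiol+BCO arrays and -2.92 to -0.21 over the estradiol arrays. Of these, 9 were lower and 4 higher, and none passed the adjusted test. Endothelial genes (3 of 9 listed) ranged from -3.39 to -3.12 in estradiol+BCO and from -3.81 to -2.99 in estradiol fetuses. Their part in the differences of the 5 genes was not tested. In RNA from the whole hypothalamus, fewer cells that make a transcript and less of the transcript per cell cannot be told apart.

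PTCH1 was lower in estradiol+BCO fetuses than in each of the other groups. Its brighter probe, A_70_P068161, was at -4.80, -4.42, -4.83 and -4.26 in estradiol+BCO fetuses (replicates 1 to 4), against -4.05, -3.50, -3.75 and -4.06 in estradiol fetuses. It was at -3.66, -3.86, -4.22 and -4.27 in BCO fetuses, against -4.43, -4.00, -4.05 and -4.01 in control fetuses. Every estradiol+BCO array lay below every estradiol array, whereas 1 or more of them overlapped the BCO and control arrays. The mean was -4.58 ± 0.28 in estradiol+BCO and -3.84 ± 0.27 in estradiol fetuses (SD, n = 4 each). The difference was -0.74 ± 0.18 (SE) on the log2 scale, or a signal 1.67-fold lower. The difference was -0.58 ± 0.18 against BCO and -0.46 ± 0.18 against control. The BCO minus control difference of PTCH1 was 0.12 ± 0.18, with 0.45 on slide 1 and -0.21 on slide 2, and estradiol stood at 0.28 ± 0.18 relative to control.

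The interaction asks whether the occlusion moved a gene differently in estradiol-treated fetuses, and for PTCH1 A_70_P068161 it was -0.86 ± 0.26 on the log2 scale. The second PTCH1 probe, which is the same sequence moved by 1 base, had an estradiol+BCO mean of -4.64 ± 0.31 and an estradiol mean of -4.03 ± 0.38, a difference of -0.61 ± 0.21. It overlapped between those groups, through estradiol replicate 1 at -4.46. The arrays lay on 2 slides, and every group had 2 arrays on each. The estradiol+BCO minus estradiol difference of A_70_P068161 was -0.84 on slide 1 and -0.64 on slide 2. Against BCO it was -0.85 on slide 1 and -0.30 on slide 2. The interaction was -1.29 and -0.43 on the same slides.

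SMO, the signal transducer released by PTCH1, differed little by its brighter probe and more by its dimmer one. A_70_P068172 was at -5.03, -5.03, -4.88 and -4.90 in estradiol+BCO fetuses, against -4.95, -4.71, -4.95 and -4.80 in estradiol fetuses. BCO fetuses were at -4.99, -4.91, -4.72 and -4.74, against -5.12, -4.77, -4.90 and -4.60 in control fetuses. The groups overlapped throughout, and the mean in estradiol+BCO (-4.96 ± 0.08, SD, n = 4) was within 0.11 ± 0.11 (SE) of that in estradiol fetuses (-4.85 ± 0.12). The BCO minus control difference was 0.00 ± 0.11.

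By SMO A_70_P068171 the estradiol+BCO arrays were at -5.41, -5.35, -5.71 and -5.91, against -4.96, -5.12, -5.53 and -5.41 in estradiol fetuses. BCO fetuses were at -5.32, -5.25, -5.16 and -5.23, against -5.05, -4.95, -5.28 and -5.24 in control fetuses. All estradiol+BCO values lay below all BCO and control values but not below all estradiol values. The differences were -0.34 ± 0.15 against estradiol, -0.36 ± 0.15 against BCO and -0.46 ± 0.15 against control. The estradiol+BCO mean was -5.38 on slide 1 and -5.81 on slide 2, that of estradiol -5.04 and -5.47, and that of BCO -5.28 and -5.19. The difference against BCO was therefore -0.09 on slide 1 and -0.62 on slide 2, and against estradiol -0.34 on both. Another background correction, normexp, was run with 50 units added to every signal, which by itself narrows log2 differences of dim probes. A smaller difference with normexp, here and below, is therefore no check of its size. With normexp the differences of this probe were -0.33 against estradiol, -0.17 against BCO and -0.21 against control. That of A_70_P068172 against estradiol was -0.24. The lower SMO level in estradiol+BCO against BCO and control rests on 1 of 2 probes.

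The ligand SHH had 2 probes, and neither was well above background on any of the 16 arrays. The level of SHH is therefore only bounded here, and its probes were not tested.

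NTN4 was the brightest of the 5 genes' signals and the pair of probes with the closest agreement. A_70_P068146 was at -0.32, -0.62, -0.68 and -1.33 in estradiol+BCO fetuses, against -0.14, -0.07, 0.18 and -0.16 in estradiol fetuses. BCO fetuses were at 0.05, -0.09, -0.32 and -0.28, against 0.08, -0.29, 0.16 and -0.22 in control fetuses. The estradiol+BCO arrays all lay below the estradiol and control arrays, but replicate 1 overlapped the BCO arrays. The mean was -0.74 ± 0.43 in estradiol+BCO and -0.05 ± 0.15 in estradiol fetuses (SD, n = 4 each). This difference of -0.69 ± 0.18 (SE) on the log2 scale is a signal 1.61-fold lower. It was -0.58 ± 0.18 against BCO and -0.67 ± 0.18 against control.

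Estradiol+BCO replicate 4 was the lowest NTN4 array by either probe, and without it the NTN4 A_70_P068146 difference was -0.49 from estradiol, -0.38 from BCO and -0.48 from control. The other single treatments left NTN4 close to control, at 0.02 ± 0.18 for estradiol and -0.09 ± 0.18 for BCO. By A_70_P068147 the estradiol+BCO arrays were at -0.61, -0.89, -1.10 and -1.52, against -0.51, -0.40, -0.12 and -0.46 in estradiol fetuses. The difference was -0.66 ± 0.18 against estradiol and -0.69 ± 0.18 against BCO, and the groups did not overlap in either comparison. Against control it was -0.64 ± 0.18, and the groups overlapped. The slides differed in size, not in sign: estradiol+BCO minus estradiol was -0.37 on slide 1 and -1.01 on slide 2 for A_70_P068146, and -0.29 and -1.02 for A_70_P068147.

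SLIT2 had another order of groups, with its lowest level in BCO fetuses. The brighter probe, A_70_P024357, was at -6.40, -6.16, -6.15 and -6.39 in BCO fetuses, against -6.12, -5.54, -5.77 and -5.77 in control fetuses. It was at -6.17, -6.04, -6.33 and -5.93 in estradiol+BCO fetuses, against -5.97, -5.35, -5.75 and -5.96 in estradiol fetuses. All BCO arrays lay below all control arrays, by a narrow gap between BCO replicate 3 and control replicate 1. The mean was -6.27 ± 0.14 in BCO and -5.80 ± 0.24 in control fetuses (SD, n = 4 each), so that the log2 difference was -0.47 ± 0.15 (SE) and the signal 1.39-fold lower. With estradiol the occlusion difference was -0.36 ± 0.15, and the groups overlapped. The 2 differences of this probe stood close to each other, with an interaction of 0.12 ± 0.22. Estradiol alone was at 0.04 ± 0.15 relative to control.

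The dimmer SLIT2 probe, A_70_P024356, was at -7.87, -8.62, -8.18 and -8.59 in BCO fetuses, against -7.28, -7.27, -6.88 and -7.03 in control fetuses. It was well above background on 1 estradiol+BCO array, 4 estradiol arrays, no BCO array and 2 control arrays. In BCO fetuses its level is therefore only bounded. The difference as measured was -1.20 ± 0.26. With each BCO array given the lowest signal called well above background on it, the signal came to at least 1.12-fold lower in BCO, but 2 of the 4 control arrays in that mean were themselves not well above background, so that the size of the difference is not settled by this probe. Estradiol+BCO arrays were at -7.29, -8.21, -7.77 and -7.60, against -7.10, -6.47, -7.46 and -7.65 in estradiol fetuses, and the groups overlapped. With 1 of 4 estradiol+BCO arrays well above background, no size is given to that difference. With normexp the BCO minus control difference was -0.15 for this probe and -0.14 for the brighter SLIT2 probe. The 50 units that normexp added exceed the median signal of either probe, so nothing is read from these smaller values.

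Hypothalamic neuron genes were lower in the same contrast as SLIT2. The mean level of the 13 measured genes was -4.47 to -3.14 over the BCO arrays and -1.64 to -0.98 over the control arrays, and 12 of the 13 were lower, among them GAL by a log2 difference of -2.82 ± 0.56. Of the 13, 11 had an unadjusted limma p under 0.05, beside 7.17% of all probes, and none passed after adjustment. The list was written with earlier results of these data known, so nothing is read from this count. The 4 measured pituitary genes were also all lower, with a mean of -5.12 to -2.58 over the BCO arrays and -4.21 to -0.54 over the control arrays. TTR, the measured choroid plexus gene, was at -1.72 to 3.85 in BCO and 0.56 to 3.70 in control fetuses. Median log2 differences were 0.20 for endothelial (3 of 3 higher), 0.01 for astrocyte (2 of 4 higher) and -0.01 for meningeal genes (1 of 4 higher). The 2 microglia and leukocyte genes were both lower. In estradiol+BCO against BCO, 11 of the 13 hypothalamic neuron genes were higher and 2 lower (median 1.56). There SLIT2 A_70_P024357 was at 0.16 ± 0.15, PTCH1 A_70_P068161 at -0.58 ± 0.18. The part of these markers in the lower SLIT2 level was not tested.

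The SLIT receptors ROBO1 and ROBO2 and the related ligand SLIT3 were measured in the same arrays. ROBO2 averaged -4.09 ± 0.35 in BCO and -4.19 ± 0.17 in control fetuses, and ROBO1 -4.54 ± 1.12 and -4.23 ± 0.58 (SD, n = 4 each). The wide ROBO1 spread in BCO came with 1 array at -6.08. SLIT3 A_70_P024352 averaged -3.96 ± 0.43 in BCO and -4.03 ± 0.38 in control fetuses. The second SLIT3 probe, A_70_P024351, went the other way, at -4.13 ± 0.40 and -4.06 ± 0.17. The BCO and control arrays overlapped for each of them.

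FGF10 was lower in estradiol+BCO than in estradiol fetuses by all 4 probes, but by an amount that differed between probes and leaned on 1 array. Its brightest probe, A_70_P012572, was at -4.56, -4.52, -4.53 and -4.08 in estradiol+BCO fetuses, against -4.47, -3.47, -4.14 and -4.36 in estradiol fetuses. BCO fetuses were at -4.82, -4.41, -4.30 and -4.25, against -4.20, -4.20, -4.02 and -3.88 in control fetuses. By this probe all BCO arrays lay below all control arrays, while estradiol+BCO and estradiol arrays overlapped. The difference from estradiol fetuses in estradiol+BCO was -0.31 ± 0.20, and that of BCO from control was -0.36 ± 0.20.

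The other FGF10 probes gave estradiol+BCO minus estradiol differences of -0.47 ± 0.22 (A_70_P012571), -0.62 ± 0.25 (A_70_P068086) and -0.83 ± 0.29 (A_70_P068087). Their BCO minus control differences were -0.32 ± 0.22, -0.50 ± 0.25 and -0.04 ± 0.29. By A_70_P068086 the estradiol+BCO arrays were at -5.91, -6.26, -5.97 and -6.09, all below the estradiol arrays at -5.76, -4.55, -5.57 and -5.86. The same 4 arrays were all below the control arrays, at -5.17, -5.38, -5.59 and -5.04. With normexp, whose added 50 units narrow differences of such dim probes, the 4 BCO minus control differences of FGF10 lay between -0.21 and -0.02. The estradiol+BCO minus control difference of A_70_P068086 was then -0.29, against -0.76 without normexp. Estradiol replicate 2 was the highest estradiol array by every FGF10 probe. Without it the estradiol+BCO minus estradiol differences were -0.22 (A_70_P012571), -0.10 (A_70_P012572), -0.33 (A_70_P068086) and -0.53 (A_70_P068087). That array was also the highest of the estradiol group for PTCH1 and for both SLIT2 probes, and without it the PTCH1 A_70_P068161 difference was -0.62 and that of SLIT2 A_70_P024357 -0.22.

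The FGF10 receptor FGFR2 showed no difference beyond its error in estradiol+BCO against estradiol (-0.05 ± 0.32) or in BCO against control (0.05 ± 0.32).

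**Figure D3:**
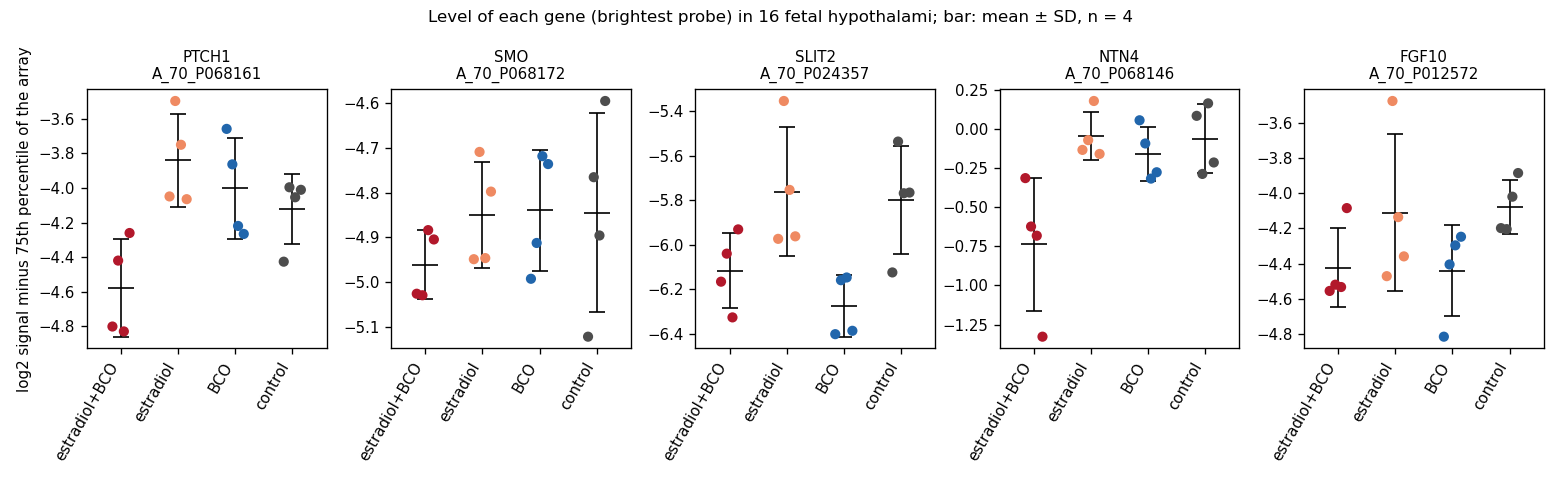
Each panel shows 1 gene by its brightest probe, with the log2 signal minus the array's 75th percentile on the y axis (own scale per panel), 1 point per fetus, and a bar for the mean ± SD of the 4 arrays of a group. PTCH1 and NTN4 have their lowest mean in estradiol+BCO (-4.58 and -0.74), SLIT2 and FGF10 in BCO (-6.27 and -4.44), and the SMO means lie within -4.96 to -4.84.

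The order of the 4 group means can be set against the pooled SD within groups. For PTCH1 A_70_P068161 the step from estradiol+BCO up to control, 0.46, exceeded the SD of 0.26, and the steps from control to BCO (0.12) and from BCO to estradiol (0.16) did not. For NTN4 A_70_P068146 the step from estradiol+BCO to BCO was 0.58 against an SD of 0.27, and the further steps to control (0.09) and estradiol (0.02) were smaller than the SD. For SLIT2 A_70_P024357 the step that exceeded the SD of 0.22 was that from estradiol+BCO to control, 0.32, so that both occluded groups stood below both sham groups. For FGF10 A_70_P012572 it was likewise the step from estradiol+BCO to estradiol, 0.31 against an SD of 0.29. For SMO A_70_P068172 none of the steps exceeded the SD of 0.15. By the group means of their brightest probes, PTCH1 and NTN4 were thus lowest in estradiol+BCO by more than 1 SD. SLIT2 and FGF10 were lower in both occluded groups, and SMO had no step over its SD. These steps compare means only. Single estradiol+BCO arrays overlapped the BCO and control arrays for PTCH1 and the BCO arrays for NTN4. The place of FGF10 leans on estradiol replicate 2, without which its estradiol+BCO minus estradiol difference was -0.10, and the other 3 FGF10 probes had their lowest mean in estradiol+BCO. By SMO A_70_P068171 the estradiol+BCO mean lay 0.34 below the next group, against an SD of 0.20.

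Over the 16 arrays the brightest probes of SLIT2 and FGF10 were the most alike of the 10 pairs among the 5 genes, with Pearson's r = 0.79, and r = 0.70 once group means were subtracted. PTCH1 and SLIT2 had r = 0.51, and 0.69 after group means were subtracted. PTCH1 and NTN4, which were both lowest in estradiol+BCO, had r = 0.48, but -0.18 after group means were subtracted, so that within groups the same fetuses were not low for both. NTN4 and SMO had r = -0.05, and -0.56 after subtraction. PTCH1 and SMO, the receptor and the protein it holds silent, had r = 0.32 and 0.11. All of these are descriptions over the same arrays and scaling, without a test.

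Among 1324 tested probes with a gene name, the genes whose level followed PTCH1 most closely were KIF5B, a kinesin motor gene (r = 0.86 over 16 arrays), UBQLN1, a ubiquilin of protein turnover (0.83), and CRY1, a repressor of the circadian clock (0.82). For SMO they were IGFBP1, a binding protein of insulin-like growth factors (0.81), the integrin gene ITGA4 (0.79) and the leptin gene LEP (0.76). For SLIT2 they were the probe that the files name PR (0.84), TAC3, the neurokinin B precursor (0.82), and DIRAS3 (0.81). For NTN4 they were the chaperonin gene TCP1 (0.79), the metalloproteinase inhibitor TIMP3 (0.71) and NUS1 (0.67). For FGF10 they were SLIT2 (0.79), TAC3 (0.73) and FGF7 (0.73), a growth factor of the same subfamily. Leaving out the 2 arrays farthest from the median of the gene lowered r to 0.76 for PTCH1 with KIF5B, to 0.70 for SMO with IGFBP1, to 0.69 for SLIT2 with PR, to 0.47 for NTN4 with TCP1 and to 0.57 for FGF10 with SLIT2.

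The wider pathways were followed through lists of 49 Hedgehog, 97 guidance and 46 FGF genes, of which 9, 11 and 9 had a named probe. Apart from the 5 genes and SHH, 23 of them were tested, each by its brightest probe. None passed limma's adjusted test in any of the 8 comparisons. In estradiol+BCO against estradiol 17 were lower and 6 higher, with a median log2 difference of -0.11 beside -0.01 for all probes, and 2 of the 23 had an unadjusted p under 0.05, beside 7.73% of all probes. In estradiol+BCO against BCO 19 were lower and 4 higher, with a median of -0.20 beside -0.02, and 2 had an unadjusted p under 0.05, beside 9.45%. In BCO against control 9 were lower and 14 higher, with a median of 0.07 beside 0.01, and 1 had an unadjusted p under 0.05, beside 7.17%.

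Within the Hedgehog list, 6 genes besides PTCH1 and SMO were tested. The casein kinase gene CSNK1E, whose product phosphorylates pathway components, was lower in estradiol+BCO than in BCO by -0.43 ± 0.12 (limma adjusted p = 0.275). Its estradiol+BCO arrays all lay below its BCO arrays, as did those of 2.57% of all probes. The related CSNK1D was higher in estradiol+BCO than in estradiol by 0.16 ± 0.07 (adjusted p = 0.647). The cell cycle gene CCND2, a Hedgehog target in several tissues, differed between estradiol+BCO and BCO by -0.45 ± 0.23 (adjusted p = 0.565), and the groups overlapped. PRKACA, the catalytic subunit of protein kinase A, which restrains the pathway, was at 0.24 ± 0.14 for BCO averaged over estradiol (adjusted p = 0.734). Each of these genes was picked for its lowest p among the 8 comparisons.

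In the guidance list, 9 genes besides SLIT2 and NTN4 were tested. The adaptor gene NCK1 was at 0.32 ± 0.11 for estradiol against control, and the GTPase gene RAC1 at 0.20 ± 0.09 for estradiol+BCO against control. The semaphorin receptor NRP1 differed between estradiol+BCO and estradiol by -0.58 ± 0.40, with 0.16 on slide 1 and -1.31 on slide 2. SLIT3 was at -0.31 ± 0.22 for estradiol against control, and at -0.09 with normexp. None passed the adjusted test.

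In the FGF list, 8 genes besides FGF10 were tested, and 7 of them were lower in estradiol+BCO than in estradiol, with a median of -0.16. The receptor FGFR1 was at -0.50 ± 0.21 and the ligand FGF7 at -0.86 ± 0.47 in that comparison. FGF18, a ligand, went the other way at 0.71 ± 0.24 (limma adjusted p = 0.474), which shrank to 0.24 with normexp correction. FGFR3, which astrocytes also express, was at -0.33 ± 0.10 for estradiol averaged over BCO (adjusted p = 0.831). SPRY4, an inhibitor induced by FGF signalling, was at -0.33 ± 0.13 for estradiol+BCO against control. With normexp these were -0.16 for FGFR3 and -0.19 for SPRY4.

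**Figure D4:**
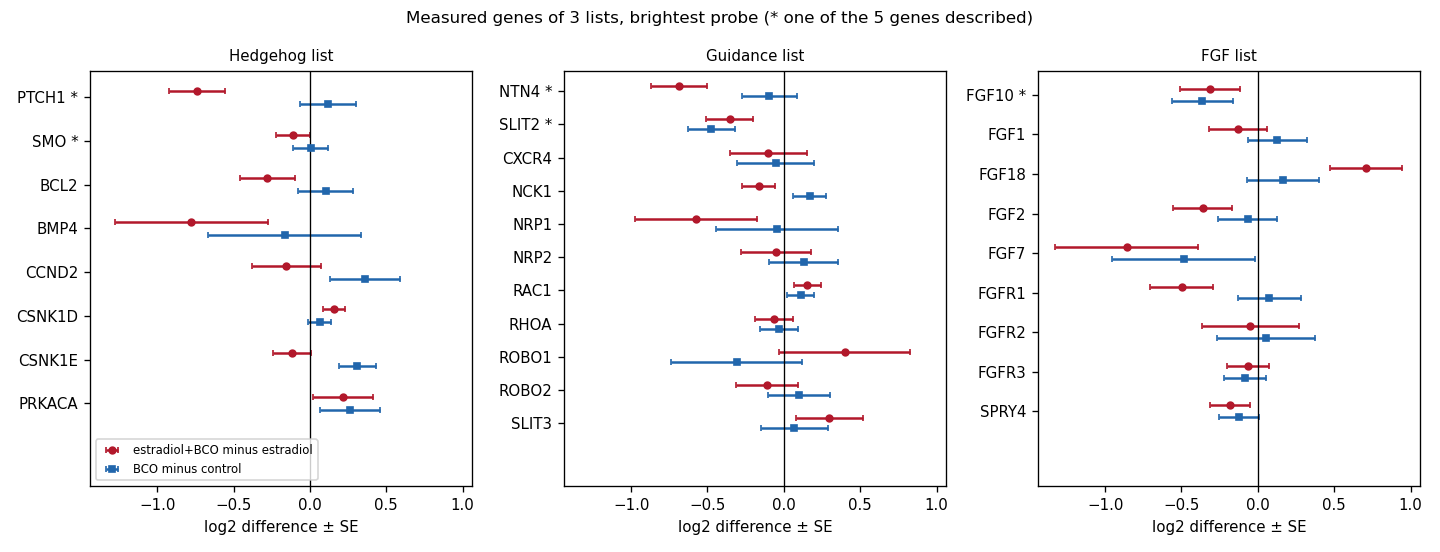
Tested genes of the Hedgehog, guidance and FGF lists, 1 row per gene by its brightest probe, with the log2 difference on the x axis (point, limma estimate; bar, 1 standard error; 4 arrays a group); stars mark the 5 genes described. PTCH1 (-0.74) and NTN4 (-0.69) lie left of 0 by more than their error in estradiol+BCO minus estradiol and within their error of 0 in BCO minus control (0.12 and -0.09), and FGF18 lies to the right (0.71).

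The slide was the measure that had no part in the choice of the genes, and it was tested for each probe in a fit with the 4 groups. Of 12937 probes 6.63% differed between slides at an adjusted p under 0.05, and 0 of the 12 did by limma, although SMO A_70_P068171 came nearest, with slide 2 lower by a log2 difference of -0.26 ± 0.08 (adjusted p = 0.0703). At an unadjusted p under 0.05 it was the only one of the 12. The share of all probes at that threshold is not given here, so nothing is read from this count. Since every group was split evenly between the slides, slide does not separate the groups.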

How the data were processed

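Per the labels' protocols, total RNA from each hypothalamus (500 ng, RNA integrity 7.4 to 8.4) was labelled with Cy3 and put on 1 array. The deposited scanner files hold an intensity per spot, in arbitrary units, background-subtracted and detrended by Feature Extraction 10.1.1.1 but not scaled between arrays, per the file headers (design 019921, protocol GE1-v5_10_Apr08). The deposited value table holds log2 values, which equal the log2 processed signal minus each array's median, and it was used as an alternative.

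Of 15744 features, control spots were left out and flagged spots (2 to 36 per array) set to missing. Log2 signals were scaled by the 75th percentile. Probes well above background on at least 4 of 16 arrays were tested (12937; 11596 to 12969 were well above background per array). limma 3.58.1 (R 4.3.3) was fitted to all 4 groups in 8 comparisons, with Benjamini-Hochberg adjustment. The code was tested on simulated data. The number of arrays limits the precision.

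The genes and lists were chosen with earlier results of these data known. SLIT2 was matched through the files' description; SLIT3, SPRY4, NRP1 and NRP2 were named by aliases added after the files were seen. Symbols of other genes came from RefSeq's gene table for assembly ARS-UI_Ramb_v3.0, used for names only (1557 probes named). Other genes named are the 3 most correlated with each gene, up to 4 per pathway list by lowest p in any comparison, 2 per marker list, and the receptors or ligands of the 5 genes. BMP4, BCL2 and other list genes appear only in the plot of the lists. Labels give the fetus as replicate.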

Additional observations from a re-analysis of the deposited data

Results flagged for a closer look

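In 3 of 48 groups of 4 arrays (12 probes in 4 groups each), 1 array stood far from the other 3, by a gap larger than Dixon's critical value for 4 samples allows. Chance marks about 1 group in 20, so 3 of 48 is close to what chance gives.

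PTCH1 A_70_P068161 was at -4.43 in control replicate 1, and at -4.05 to -4.00 in the other control arrays. By the second PTCH1 probe, of nearly the same sequence, control replicate 1 was at -4.08, inside the range of its group (-4.29 to -3.96).

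FGF10 A_70_P012571 was at -4.69 in estradiol replicate 2, and at -5.74 to -5.58 in the other estradiol arrays.

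FGF10 A_70_P012572 was at -4.08 in estradiol+BCO replicate 4, and at -4.56 to -4.52 in the other estradiol+BCO arrays. By A_70_P012571 that array was again the highest of its group, at -5.58 against -6.23 to -5.87, whereas by A_70_P068086 it was at -6.09, inside the range of its group (-6.26 to -5.91).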

How the results depend on the processing

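The count of the 12 probes called was 0 in each comparison and alternative run (all 8 comparisons, except that a fit of only the groups compared was run for the 5 pairs of groups): each slide alone or slide as a block, the replicate block, quantile normalization or median centring, normexp background correction, all probes or those well above background on all 16 arrays (11 of the 12 left), the series value table, trended and robust moderation, only the groups compared, and leaving out each array in turn (0 to 0). The count was also 0 for the 23 other list genes in the same fits. Over all probes, 0 to 14 were called in BCO against control (14 on slide 2 alone, against 0 as reported), 0 to 13 in estradiol+BCO against BCO (13 on slide 2 alone), and 0 to 3 in the other 6.

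All 12 probes stayed lower in estradiol+BCO against estradiol and against control under each alternative that kept them, including each left-out array. As reported, 51.61% and 53.59% of all probes were lower in these comparisons. The 5 genes were singled out with these same arrays known, so nothing is read from the kept sign or the counts. The count of the 12 at an unadjusted p under 0.05 in estradiol+BCO against estradiol was 9 as reported, beside 1000 of all 12937 probes. With 1 array left out it was 5 to 9, beside 734 to 1295 of all probes. On slide 1 alone it was 1, beside 498, and with quantile normalization 5, beside 971. Of 2644 single log2 differences, 47 moved by more than 1 SD (13 with normexp, 17 on each slide alone) and 103 turned sign, 40 of them in estradiol against control and 24 in BCO against control, and none in estradiol+BCO against estradiol or control. With normexp 0 of 12 probes were lower in estradiol against control, against 5 as reported. The cause was not tested. The genes most alike depend on the measure: by Spearman's rho or after subtracting group means, 0 or 1 of the 3 were shared.

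The replicate numbers do not pair the fetuses: same-numbered arrays of different groups had a median correlation of deviations of 0.12 (20 of 24 pairs over 0.1), other arrays on the same slide 0.14, and 3 of 16 arrays correlated best with their own number. With the replicate block the count called was 0. That at an unadjusted p under 0.05 was 8 in estradiol+BCO against estradiol, beside 1128 of all 12937 probes. Signal over background limits the SLIT2 probes most.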
